A study of Mus musculus with 80 samples.

Results

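Chromatin-associated RNA of mouse embryonic stem cells was examined for transcripts of the 4 Hox clusters. Members were all rows of the deposited expression tables named as a Hoxa, Hoxb, Hoxc or Hoxd gene, or as the antisense or intergenic RNAs Hotair, Hottip and Hotairm1, that had reads in at least 40 of the 80 libraries. Of the 42 such rows described here, 16 passed, which is 38.1%, against 79.8% of all 22556 genes. All 16 were protein-coding Hox genes: 2 in Hoxa (Hoxa3, Hoxa10), 3 in Hoxb (Hoxb3, Hoxb9, Hoxb13), 5 in Hoxc (Hoxc9 to Hoxc13) and 6 in Hoxd (Hoxd1, Hoxd3, Hoxd8, Hoxd10, Hoxd11, Hoxd13). The listed antisense and intergenic RNAs did not reach that limit, so no antisense RNA is among the members.

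Hox genes encode homeodomain transcription factors that give cells their position along the head-to-tail axis. Within each cluster the genes share an orientation and are ordered as they are used along that axis, with the anterior genes (such as Hoxd1) at the end that retinoic acid activates early and the posterior genes (Hoxa10 to Hoxd13) at the opposite end. In embryonic stem cells the clusters are classical targets of the Polycomb complexes PRC1 and PRC2, which keep them nearly silent at promoters rich in CG dinucleotides.

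The cells were mouse embryonic stem cell lines from a cross of Mus castaneus and 129S strains, grown on inactivated fibroblast feeder cells, with a doxycycline-responsive (TetOn) promoter at the endogenous Xist gene of 1 X chromosome. In the degron lines an FKBP12 F36V tag allowed dTAG-13, a small molecule that recruits a ubiquitin ligase, to deplete METTL3 (the enzyme that writes N6-methyladenosine, m6A; 4 clones, 16 libraries), YTHDC1 (the nuclear m6A reader; 2 clones, 2 experiments of 8 libraries), ZCCHC8 (a scaffold of the NEXT complex, which delivers RNA to the nuclear exosome; 2 clones, 8 libraries) or ZFC3H1 (a subunit of the PAXT connection, which does the same for polyadenylated RNA; 2 clones, 8 libraries). The METTL3 clones G4 and H1 carry the tag at the N-terminus and C3 and H5 at the C-terminus. The TetOn promoter is on the Cast allele in the METTL3 and ZFC3H1 lines and on the 129S allele, in cells with an array of Bgl stem loops in Xist, in the ZCCHC8 and YTHDC1 lines. Another 4 lines were made in METTL3 clone H5 by adding a GFP-METTL3 transgene at Rosa26, wild type (WT_P2B3, WT_1A_XiO) or with the catalytically dead D395A change (D395A_1F, D395A_9F_XiO). Each of these is 1 clone with 2 experiments (8 libraries per line), and both XiO lines have lost an X chromosome. Every line and replicate had 4 treatments: untreated, dTAG-13 for 26 h, doxycycline (Dox) for 24 h, and dTAG-13 with Dox added for the last 24 h. The 26 h is from the sample titles, which were followed, while a treatment field of the labels gives 2 h for dTAG-13 alone. Replicates were clones or repeat experiments. In the degron lines p-values measure the spread of libraries left once levels of clone and treatment group are taken out. In the transgene lines they measure the spread between experiments, unless a replicate block is stated. Lines tested in the same fit, such as ZCCHC8 and the first YTHDC1 experiment, share this spread.

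Libraries held 8.58 to 34.4 M reads (median 22.5 M), so that 1 read was worth 0.0291 to 0.117 CPM (counts of a gene per M reads of the library). Xist was higher in every Dox library than in every library without Dox of the same line, in 9 of 9 lines. The degrons act on protein, so RNA levels of their targets check nothing. Embryonic stem cell markers summed to 974 to 2662 CPM per library. Sox2 had no read in any library. Zero reads need not mean silence in these counts, as given below for genes inside the span of another, so Sox2 is not taken as absent. WT_1A_XiO stood apart, with stem cell markers at 974 to 1253 CPM and fibroblast markers at 140 to 260 CPM. All other lines had fibroblast markers at 40.2 to 112 CPM. Markers of differentiation summed to 181 to 257 CPM in WT_1A_XiO, and to at most 148 CPM in the libraries of other lines. Feeder cells can themselves express Hox genes, and in bulk RNA fewer cells of a type cannot be told apart from less RNA per cell.

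The clusters were all but silent. The 80 libraries held 6725 reads in these rows, 3.74 per M reads, and 6059 of them (90.1%) fell in the 16 members. A library had reads in 8 to 16 members (median 12), and their summed level was 1.36 to 9.54 CPM (median 3.19), against a median of 3.75 CPM for the mean level of a single gene. Of these reads Hoxc gave 47.6%, Hoxb 21.9%, Hoxd 21.0% and the Hoxa rows described 9.53%. The rows closest to the limit were Hoxb13 (40 libraries), Hoxb3 (41) and Hoxc11 (41) inside it and Hoxa11os (35), Hoxb1 (34) and Hoxc5 (34) outside it.

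The antisense and intergenic RNAs of the clusters were at the limit of detection. Hotair, transcribed within Hoxc and known for its binding of Polycomb, had 12 reads in 10 libraries. Hottip, at the posterior end of Hoxa, had 19 reads in 17 libraries. Hotairm1, of the Hoxa cluster, was not among the rows analysed here. Of the other antisense rows, Hoxa11os had 52 reads in 35 libraries and Hoxd3os1 had 7 in 4. Counting was strand-specific, and zero reads need not mean silence everywhere: Hoxa4, Hoxa5, Hoxa6 and Hoxd4 had 0 reads in all libraries and lie wholly inside the annotated spans of Hoxa3 or Hoxd3 on the same strand. Among all such nested rows 387 of 388 had no read, against 4.27% of other rows, so the levels of these 4 genes are not measured here.

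Read density per length picked out few genes in each cluster. Mean levels over the 80 libraries, per kb of span not shared with another gene, were highest for Hoxc12 (0.234 CPM per kb), Hoxc13 (0.146), Hoxb9 (0.119), Hoxd13 (0.0698) and Hoxd1 (0.0553). These 5 genes include the posterior pair at the edge of Hoxc and both ends of Hoxd, while Hoxb9 lies in the interior of its cluster. Hoxc13, at mm10 chr15:102921131-102928814, and Hoxc12, at chr15:102936853-102938517, are posterior neighbours at the edge of Hoxc. Hoxb9 (chr11:96271330-96276593) is a posterior-class gene of Hoxb. The next members, Hoxc11 (0.0221), Hoxd8 (0.0197), Hoxb13 (0.0186), Hoxd11 (0.0186) and Hoxd10 (0.0173 CPM per kb), were lower. The long anterior spans were lowest among the members, with 0.00560 for Hoxd3, 0.00361 for Hoxa3 and 0.00184 CPM per kb for Hoxb3. Reads were counted over whole transcript spans, introns included.

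**Figure D1:**
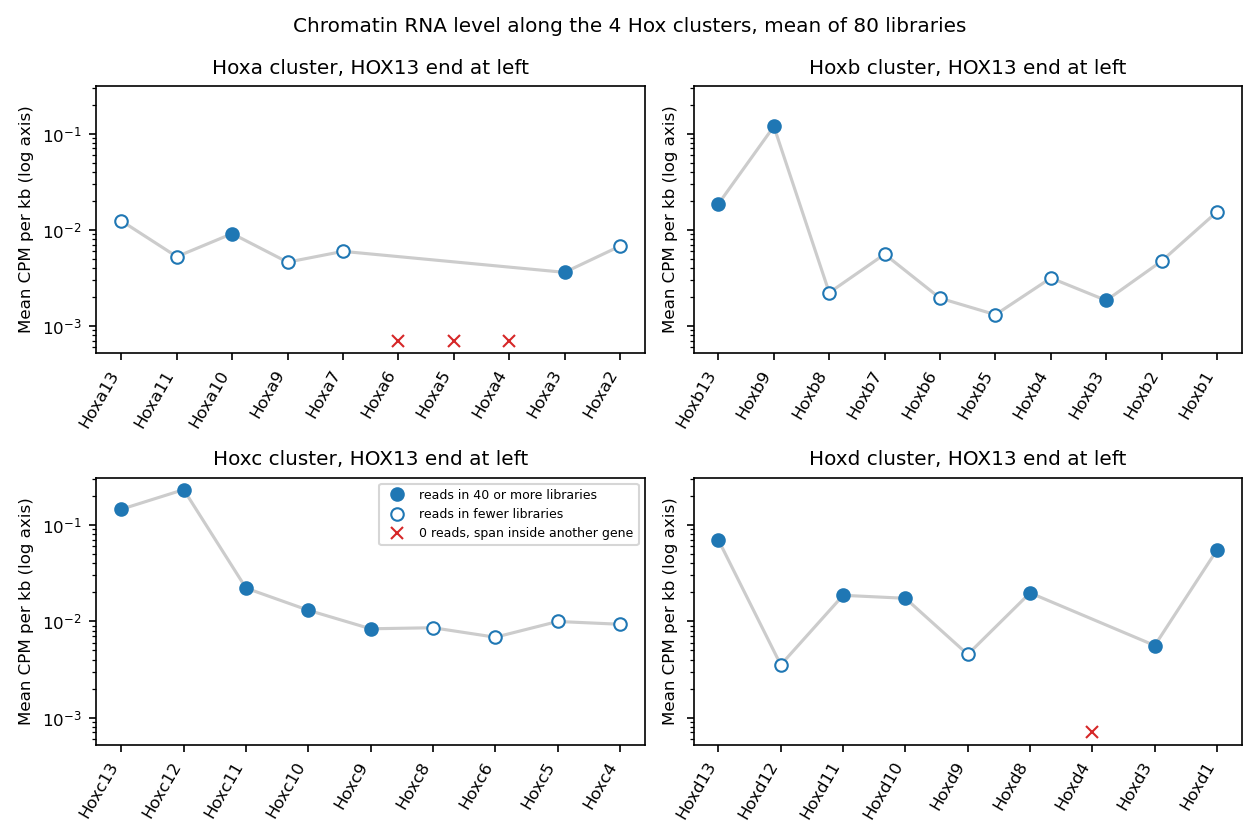
Mean level over the 80 libraries (CPM per kb of unshared span, log axis) of each Hox gene in its order along the cluster, posterior end at the left, with a panel for each of the 4 clusters. Filled points had reads in at least 40 libraries and open points in fewer, and red crosses at the foot of the axis mark genes with 0 reads whose span lies inside another gene; Hoxc12, Hoxc13, Hoxb9, Hoxd13 and Hoxd1 are the 5 highest.

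Levels differed between lines before any treatment effect is considered, and differently for each gene. Over all libraries of a line, Hoxb9 had a median of 1.52 CPM in ZCCHC8 (0.858 to 2.03) and 0.224 CPM in METTL3 (0.0444 to 0.863), and these ranges barely overlap. In between were 1.05 CPM in D395A_9F_XiO (0.718 to 2.97), 0.928 in the first YTHDC1 experiment (0.551 to 1.33), 0.379 in the second (0.0678 to 0.753) and 0.349 to 0.402 in the remaining lines. Hoxc13 ran the other way between the same lines, with 0.432 CPM in ZCCHC8 (0.287 to 0.879) and 1.54 CPM in METTL3 (0.892 to 2.87), which do not overlap. It was highest in D395A_9F_XiO (median 1.73 CPM, 1.04 to 3.15) and near METTL3 in WT_P2B3 (1.53) and WT_1A_XiO (1.35). Most of these lines are in tables that were normalised separately, so these are levels set side by side and not tests.

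The effect of each depletion was tested with limma on log2(CPM + 0.5), a scale that understates changes of low genes, with Benjamini-Hochberg adjustment over all genes tested. At the floor of 0.5 CPM set as the standard, between 1 and 3 members were high enough to be tested in a line. At the planned lower floor of 0.1 CPM it was 5 to 10, and values below are from that floor unless stated. Hoxb3, Hoxb13, Hoxc11 and Hoxd10 were tested nowhere, and are given as reads.

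Loss of METTL3 was followed by more RNA from posterior Hoxd genes and Hoxb9. Hoxd13, at the posterior end of Hoxd (mm10 chr2:74668310-74671599) and needed for digit formation, was at 0.414, 0.133, 0.234 and 0.202 CPM in untreated clones G4, H1, C3 and H5, and at 0.540, 0.557, 0.509 and 0.851 CPM after dTAG-13. With Dox it was at 0.461, 0.0498, 0.0940 and 0.285 CPM, and with both agents at 0.617, 0.516, 0.174 and 0.579 CPM. The level was higher with dTAG-13 in 8 of 8 pairs within a clone, but the ranges over all clones overlap. Its mean went from 0.234 ± 0.147 to 0.543 ± 0.185 CPM (SD, n = 8 libraries), on 37 and 88 reads, and it rose by 0.51 (SE 0.12) on the log2(CPM + 0.5) scale (limma adjusted p = 0.0046, edgeR adjusted p = 0.0107).

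Hoxd11 (chr2:74679558-74687016), which patterns the forearm with its Hoxa partner, had a lowest, median and highest level of 0, 0.0509 and 0.222 CPM without dTAG-13 and of 0.0870, 0.377 and 0.639 CPM with it. It was higher in 8 of 8 pairs, with 13 reads against 56, and rose by 0.55 (SE 0.12, limma adjusted p = 0.0045, edgeR 0.0032). Hoxb9, a gene of thoracic identity, was at 0.0444, 0.153 and 0.359 CPM without and 0.0796, 0.315 and 0.863 CPM with dTAG-13, higher in 7 of 8 pairs, and rose by 0.34 (SE 0.11, limma adjusted p = 0.0264, edgeR 0.024). For both of these genes the libraries with and without dTAG-13 overlap in level.

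So 3 of the 10 members tested were higher in METTL3-depleted cells and 0 lower, where 33.2% of the 16638 genes tested were higher and 7.13% lower. The members' median change was 0.19, against 0.22 over all genes, so the share of members called was near the background. The 7 members tested and not called had changes of 0.29 (Hoxd3, limma adjusted p = 0.0576), 0.22 (Hoxd8), 0.16 (Hoxd1), 0.13 (Hoxc12), 0.11 (Hoxa10), 0.10 (Hoxc13) and -0.02 (Hoxa3). At the standard floor Hoxc13 was the only member tested and 0 were called, where limma called 35.2% of genes higher. Among members too low to test, Hoxd10 had 1 read without and 15 with dTAG-13, Hoxb13 1 and 11, Hoxc11 3 and 16, and Hoxc10 5 and 21. In mean level 15 of 16 members were higher, all but Hoxa3, as were 74.7% of all genes and 78.3% of those of similarly low level. No member was separated completely between the arms, against 2.97% of all genes.

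The level of fibroblast markers overlapped between the METTL3 arms, at 40.2 to 89.3 CPM without and 54.5 to 107 CPM with dTAG-13. It was higher with dTAG-13 in 8 of 8 pairs within a clone. Of its 11 tested markers 4 rose, where 35.2% of all genes did at the standard floor. The fibroblast level was also higher with dTAG-13 in 4 of 4 pairs in both YTHDC1 experiments, ZFC3H1 and WT_P2B3, where no member was called with dTAG-13. It was likewise higher in 4 of 4 pairs in ZCCHC8 and D395A_1F, where at least 1 member was called. In WT_1A_XiO and D395A_9F_XiO it was higher in 3 of 4 pairs. In METTL3, markers of differentiation summed to 39.4 to 88.5 CPM without and 45.3 to 118 CPM with dTAG-13, higher in 7 of 8 pairs. Of the 9 tested, 3 rose (Nes, Pou3f1, Eomes) and 1 fell (T). With the fibroblast level as a covariate the changes were 0.62 for Hoxd13 (limma adjusted p = 0.0879), 0.58 for Hoxd11 (0.129) and 0.07 for Hoxb9 (0.861). No call was kept, and the value of Hoxb9 moved most. Within every clone, however, fibroblast markers were higher in each library with dTAG-13 than in each without. With clone as a block, this fit can hardly tell their level from dTAG-13. Hoxd13 was called whichever clone was left out. Hoxd11 was not called without H5 (limma adjusted p = 0.0541), and Hoxb9 not without G4 (0.169) or H5 (0.123). The part of feeder cells in these changes was not tested otherwise, and that of differentiating cells was not tested.

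Loss of ZCCHC8 was followed by more RNA from both ends of Hoxd. Untreated clones Z4F and Z12H had Hoxd13 at 0.0478 and 0.0805 CPM, and dTAG-13 cells at 0.333 and 0.614 CPM. With Dox the values were 0.0746 and 0.0980 CPM, and with both agents 0.309 and 0.271 CPM. Every library with dTAG-13 was thus above every library without. The mean went from 0.0752 ± 0.0208 to 0.382 ± 0.157 CPM (SD, n = 4 libraries) on 7 and 30 reads, a ratio of mean CPM of 5.07, and Hoxd13 rose by 0.60 (SE 0.13, limma adjusted p = 0.0011, edgeR 0.00099).

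Hoxd1 (chr2:74762980-74765142), the anterior end of the cluster, was at 0.0478 and 0.0403 CPM in untreated Z4F and Z12H and at 0.333 and 0.236 CPM after dTAG-13. With Dox it was at 0.0746 and 0.0490 CPM, and with both agents at 0.154 and 0.406 CPM. These arms do not overlap either. It had 5 reads without and 20 with dTAG-13, a ratio of mean CPM of 5.33, and rose by 0.49 (SE 0.13, limma adjusted p = 0.0046, edgeR 0.0076). Hoxd3, its long neighbour, was at 0, 0.121, 0.0373 and 0.245 CPM without and at 0.0666, 0.236, 0.231 and 0.676 CPM with dTAG-13 (Z4F, Z12H, then both with Dox), so that the arms overlap. It rose by 0.38 (SE 0.14, limma adjusted p = 0.0252), with an adjusted p of 0.0571 in edgeR.

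Hoxb9 had the most reads of the members in these cells. It was at 1.00 and 1.57 CPM in untreated Z4F and Z12H, 1.46 and 1.65 CPM after dTAG-13, 0.858 and 1.37 CPM with Dox, and 1.58 and 2.03 CPM with both agents. The arms overlap, but it was higher with dTAG-13 in 4 of 4 pairs. It rose by 0.37 (SE 0.15, limma adjusted p = 0.0461) at the floor of 0.1 CPM, missed the threshold at the standard floor (0.0519) and in edgeR (0.0685), and with fibroblast markers as a covariate its change turned to -0.41 (0.441).

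The promoter windows of both Hoxd ends are shown because these genes moved together in ZCCHC8-depleted cells. They are the 250 bases before the RefSeq start in GRCm38.p6, with CG dinucleotides, which mark CpG islands, in capitals. The window of Hoxd13 is chr2:74667975-74668224 and that of Hoxd1 is chr2:74762730-74762979, both plus strand.
Hoxd13: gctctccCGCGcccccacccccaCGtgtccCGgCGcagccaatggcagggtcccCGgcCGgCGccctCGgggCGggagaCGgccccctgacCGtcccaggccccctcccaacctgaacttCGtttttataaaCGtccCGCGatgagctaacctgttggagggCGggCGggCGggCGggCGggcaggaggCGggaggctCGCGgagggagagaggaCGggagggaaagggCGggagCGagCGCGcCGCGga
Hoxd1: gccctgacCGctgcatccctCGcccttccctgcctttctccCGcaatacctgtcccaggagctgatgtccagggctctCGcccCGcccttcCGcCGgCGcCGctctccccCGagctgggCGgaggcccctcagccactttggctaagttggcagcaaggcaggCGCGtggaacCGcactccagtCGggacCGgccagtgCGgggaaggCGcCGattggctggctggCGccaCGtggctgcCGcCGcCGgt
The Hoxd13 window holds 31 CG (G and C are 74.4% of its bases), and 5.19% of the 32851 promoters in the table hold as many. That of Hoxd1 holds 24 CG (71.6%), as many as 11.98% of promoters do. The window of Hoxd3, also called in ZCCHC8, holds 12 CG (49.2%), as many as 33.5% of promoters do. Promoters of 8 of the 16 members were in the table, and these had a median of 19 CG (2 to 31) against 6 over all promoters. Any link of CG content to the changes was not tested. The start of Hoxd13 in the expression tables lies downstream of the RefSeq start used here.

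In ZCCHC8-depleted cells 4 of the 6 members tested were higher and 0 lower, where 31.9% of 17351 genes were higher and 19.4% lower. The members' median change was 0.38, against 0.07 over all genes. Hoxc13 (0.25, limma adjusted p = 0.14) and Hoxc12 (0.17, 0.33) were not called, and of the untested members Hoxb3 had 1 read without and 10 with dTAG-13 and Hoxd10 1 and 7. At the standard floor, where Hoxb9 alone was tested and 30.7% of genes were higher, 0 members were called. Hoxd13 and Hoxd1 were the members with no overlap between arms, a separation upward seen in 18.2% of all genes. In mean level 13 of 16 members were higher, not Hoxc9, Hoxc10 or Hoxc11, against 59.5% of all genes and 84.9% of those of similarly low level.

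The sums of markers of other cell types rose with the same treatment. Fibroblast markers summed to 66.8 to 73.6 CPM without and 77.5 to 82.3 CPM with dTAG-13 in the ZCCHC8 libraries. limma called 2 of their 10 tested markers higher, where 30.7% of all genes were at the standard floor. Markers of differentiation summed to 56.0 to 70.8 CPM without and 72.3 to 93.6 CPM with dTAG-13. Neither pair of ranges overlaps. Of the differentiation markers, limma called Eomes, Fgf5, Gata4, Gata6, Otx2, Pax6 and T higher at the standard floor. The others tested, Nes and Pou3f1, were not called. With the fibroblast level as a covariate Hoxd13 changed by 0.87 (limma adjusted p = 0.0938), Hoxd1 by 0.25 (0.661) and Hoxd3 by 0.35 (0.553). Since the fibroblast level is separated between these arms, this fit, for Hoxb9 above too, can hardly tell that level from dTAG-13. The part of these cells in the Hox changes was not tested otherwise. Leaving out either clone kept Hoxd13 (limma adjusted p = 0.0129 and 0.0337), while Hoxd1 was lost without Z12H (0.0832) and Hoxd3 without either (0.0799 and 0.231).

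**Figure D2:**
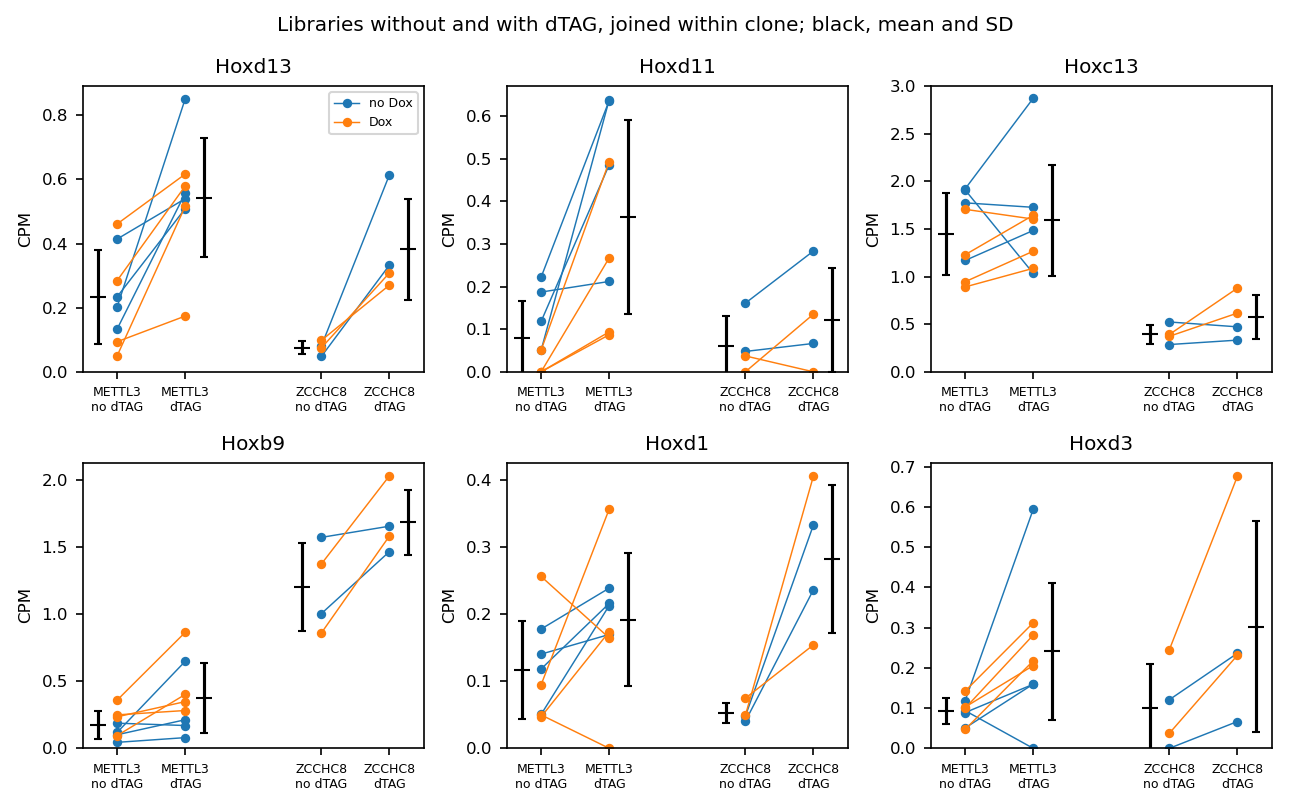
CPM of Hoxd13, Hoxd11, Hoxc13, Hoxb9, Hoxd1 and Hoxd3 without and with dTAG-13 in the METTL3 (4 clones) and ZCCHC8 (2 clones) lines; lines join the libraries of a clone, blue without and orange with Dox, and black marks give mean ± SD. Hoxd13 and Hoxd1 do not overlap between the ZCCHC8 arms, and all 6 genes overlap between the METTL3 arms.

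Depletion of YTHDC1 or ZFC3H1 gave 0 member calls. In the first YTHDC1 experiment Hoxd13 was at 0.122 and 0.285 CPM in untreated clones Y9F and Y12H, 0.0842 and 0.337 CPM after dTAG-13, 0.0848 and 0.0684 CPM with Dox, and 0.154 and 0.167 CPM with both. The libraries with and without dTAG-13 overlap. Of 6 members tested there limma called 0 (0 at an unadjusted p under 0.05), where 15.4% of genes were higher and 11.3% lower. Of 5 in the second experiment it also called 0 (0 unadjusted; genes 13.5% and 13.1%). Of 6 in ZFC3H1 it called 0 (genes 5.58% and 2.74%), and Hoxc12, which changed by -0.33, was at an unadjusted p of 0.0459 and an adjusted p of 0.209. edgeR at that floor also called 0 members in each, with 0 at an unadjusted p under 0.05.

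The ZCCHC8 and first YTHDC1 libraries share a table, so their dTAG-13 effects could be compared directly. The effect on Hoxd13 was larger in ZCCHC8 by 0.50 (SE 0.19, limma adjusted p = 0.0408, edgeR 0.0844), the only member of 6 called, where 23.4% of genes differed in that direction and 16.5% in the other. Hoxd1, Hoxd3 and Hoxb9 were not called in this test. Hoxd1 was also higher with dTAG-13 in 4 of 4 pairs of the first YTHDC1 experiment, although the arms overlap, and in 1 of 4 of the second. In the first it was at 0.0816 and 0.0951 CPM in untreated Y9F and Y12H, and 0.211 and 0.262 CPM after dTAG-13. With Dox it was at 0 and 0.103 CPM, and with both agents at 0.0384 and 0.167 CPM. With the fibroblast level as a covariate the Hoxd13 difference was 0.53 (limma adjusted p = 0.0373).

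**Figure D3:**
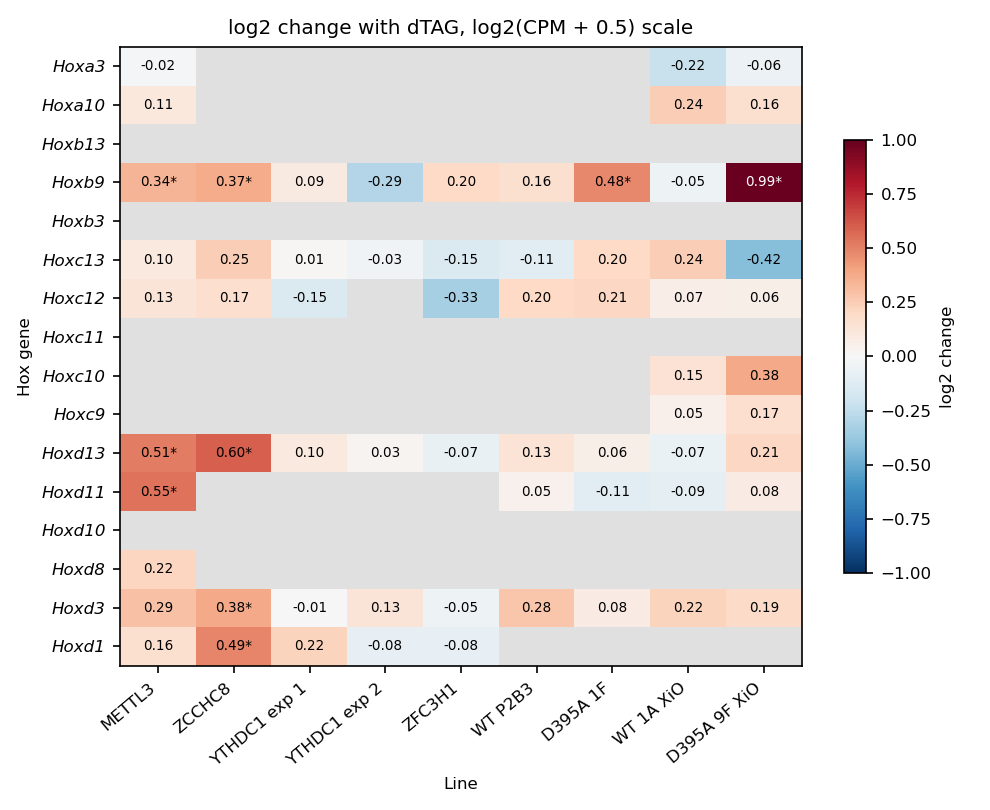
Change with dTAG-13 on the log2(CPM + 0.5) scale for each member tested at the floor of 0.1 CPM in each of the 9 lines and experiments (colour, from -1 to 1); stars mark limma adjusted p under 0.05, without the replicate block in the transgene lines, and grey cells were not tested. Stars stand in METTL3 (Hoxd13, Hoxd11, Hoxb9), ZCCHC8 (Hoxd13, Hoxd1, Hoxd3, Hoxb9) and both D395A lines (Hoxb9).

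In the lines that carry a METTL3 transgene, dTAG-13 removes the endogenous protein and leaves the transgene's, so the wild type and D395A lines ask whether catalysis is needed. Hoxb9 rose in both D395A lines. In D395A_9F_XiO it was at 0.751 and 0.824 CPM in untreated experiments 1 and 2, 2.21 and 1.29 CPM after dTAG-13, 0.718 and 0.772 CPM with Dox, and 2.97 and 1.87 CPM with both. No library with dTAG-13 overlapped those without. The mean went from 0.766 ± 0.0446 to 2.08 ± 0.703 CPM (SD, n = 4 libraries) on 76 and 185 reads, and Hoxb9 rose by 0.99 (SE 0.24, limma adjusted p = 0.0433, 0.0476 at the standard floor, edgeR 0.0824). Libraries of 1 experiment came from 1 batch of cells, and with the experiment as a replicate block limma gave an adjusted p of 0.000763 for Hoxb9, and Hoxc10 (0.38, 0.0416) and Hoxc13 (-0.42, 0.0182) were called too, 3 of 10 members where 45.4% of genes were called in either direction. At the standard floor 3 members were tested and Hoxb9 was the only one called, where 4.54% of genes were higher.

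In D395A_1F, Hoxb9 was at 0.378 and 0.229 CPM untreated, 0.742 and 0.368 CPM after dTAG-13, 0.313 and 0.205 CPM with Dox, and 0.581 and 0.699 CPM with both. A single untreated library lay above a single library with dTAG-13. The gene rose by 0.48 (SE 0.15, limma adjusted p = 0.0492, edgeR 0.0527), 1 of 6 members tested, where 12.1% of genes were higher. With the replicate block its adjusted p was 0.0134, where 31.3% of genes were higher. The call was lost without either replicate (limma adjusted p = 0.331 and 0.502), and kept in 3 of 11 alternatives. Fibroblast markers were higher without overlap in the same arm (41.3 to 56.6 and 61.4 to 76.1 CPM). With them as a covariate the change was 0.09 (limma adjusted p = 0.915), but a fit on separated arms can hardly tell the markers from dTAG-13. In D395A_9F_XiO, where the markers overlapped (53.6 to 112 and 71.7 to 105 CPM), the change with this covariate was 0.96 (limma adjusted p = 0.0147).

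The wild type transgene lines gave no such call. Hoxb9 was at 0.349 and 0.304 CPM in untreated WT_P2B3, 0.240 and 0.493 CPM after dTAG-13, 0.315 and 0.350 CPM with Dox, and 0.565 and 0.445 CPM with both. In WT_1A_XiO the same treatments gave 0.502 and 0.302, 0.284 and 0.684, 0.237 and 0.733, and 0.157 and 0.553 CPM. The arms overlap in both lines. limma called 0 genes of all (0%) in either line at the standard floor (72 and 25 at an unadjusted p under 0.05), as did edgeR at the lower floor (93 and 66 unadjusted). The difference between lines was not called for any member, where 0.0121% and 1.72% of genes were. For Hoxb9 it was 1.04 in D395A_9F_XiO against WT_1A_XiO (limma adjusted p = 0.32) and 0.32 in D395A_1F against WT_P2B3 (0.54). With the replicate block the difference between the XiO lines was called for 2 of 10 members, Hoxb9 (1.04, limma adjusted p = 0.0115) and Hoxc13 (-0.67, 0.0194), where 24.3% of genes were called in either direction, and that between the other lines for 0 of 6. Hoxa10 was the only member separated upward in WT_1A_XiO, where 0.4% of genes were, at 0.0718, 0.0907, 0.0790 and 0.100 CPM without and 0.114, 0.130, 0.314 and 0.233 CPM with dTAG-13 (8 and 18 reads), and it was not called.

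The other members of the D395A lines were mostly higher in mean with dTAG-13, with no call outside the replicate block. In each line 14 of 16 had a higher mean with dTAG-13, against 66.4% and 71.9% of all genes in D395A_1F and D395A_9F_XiO, and 74.7% and 79.3% of those of similarly low level. The exceptions were Hoxd11 and Hoxa3 in D395A_1F and Hoxc13 and Hoxa3 in D395A_9F_XiO. Besides Hoxb9, Hoxb13 (5 reads without, 19 with) and Hoxd8 (2 and 8) were separated upward between arms in D395A_9F_XiO, as were 13.7% of all genes. The separation of Hoxd8 rests on depth. In experiment 1 with dTAG-13, 1 read was 0.0614 CPM, while 2 reads in experiment 2 with Dox were 0.0594 CPM.

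Dox, which turns on Xist, was tested in the same fits, and none of the members was called by limma or edgeR at the floor of 0.1 CPM without the replicate block in the transgene lines. With it 2 of 10 were called in WT_1A_XiO and 4 of 10 in D395A_9F_XiO, and 0 of 6 in WT_P2B3 and D395A_1F. Counting both directions together, limma called 3.34% of genes in METTL3, 28.5% in ZCCHC8, 20.6% and 15.2% in the YTHDC1 experiments, 4.02% in ZFC3H1, 0.523% in WT_P2B3, 1.79% in D395A_1F and 2.14% in WT_1A_XiO. At an unadjusted p under 0.05 it had 3 of 10 members in METTL3, 1 of 6 in ZCCHC8, 2 of 10 in WT_1A_XiO, 4 of 10 in D395A_9F_XiO and 0 in the other lines. Those in METTL3 were Hoxd11, with 46 reads without and 23 with Dox (-0.38, limma adjusted p = 0.137), Hoxc13, with 270 and 226 reads (-0.30, 0.307), and Hoxb9, with 30 and 63 reads (0.30, 0.227). Hoxd11 and Hoxc13 were lower with Dox in 7 of 8 pairs. Hoxb3 was lower in 8 of 8, but on 4 reads untreated, 6 with dTAG-13, 1 with Dox and 2 with both agents. In G4 with dTAG-13 and in H5 without it, both libraries of the pair had 1 Hoxb3 read, so these pairs differ only in depth.

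In WT_1A_XiO these were the anterior genes Hoxa3 and Hoxd3. Hoxa3 was at 0.574 and 0.363 CPM in untreated experiments 1 and 2, 0.284 and 0.163 CPM after dTAG-13, 0.632 and 0.633 CPM with Dox, and 0.785 and 0.465 CPM with both agents. It was higher with Dox in 4 of 4 pairs, although the arms overlap, on 30 reads without and 53 with, and its change was 0.43 (SE 0.15, limma adjusted p = 0.30, edgeR 0.82). Hoxd3 was at 0 and 0.121, 0.398 and 0.195, 0.395 and 0.500, and 0.471 and 0.349 CPM in the same treatments. It was higher with Dox in 4 of 4 pairs, on 17 and 38 reads, and changed by 0.48 (SE 0.16, limma adjusted p = 0.24, edgeR 0.40). With the experiment as a replicate block both were called (limma adjusted p = 0.0422 for Hoxa3 and 0.0458 for Hoxd3), where 8.57% of genes were higher. Fibroblast markers averaged 208 CPM without and 188 CPM with Dox in this line.

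In D395A_9F_XiO the Hoxc genes had more reads under Dox, as had the other members except Hoxd10 (4 reads in each arm). Hoxc13 was at 1.85 and 1.34 CPM untreated, 1.04 and 1.21 CPM after dTAG-13, 3.15 and 2.76 CPM with Dox, and 2.33 and 1.61 CPM with both agents. It was higher with Dox in 4 of 4 pairs, although the arms overlap, and its change was 0.66 (SE 0.21; unadjusted p = 0.0101, limma adjusted p = 0.24). Hoxc12 had 38 reads without and 95 with Dox (0.64, adjusted p = 0.50), Hoxc10 4 and 30 (0.57, 0.13), Hoxc9 8 and 27 (0.37, 0.15) and Hoxc11 4 and 16. Hoxc9, at 0.0343 to 0.184 CPM without and 0.208 to 0.329 CPM with Dox, was the only one with no overlap, and 2.26% of all genes were separated upward in this way. limma called 0 of 10 members (4 at an unadjusted p under 0.05), where 0.328% of genes were higher. With the replicate block it called 4 of 10, Hoxc13 (adjusted p = 0.00309), Hoxc12 (0.00524), Hoxc10 (0.0117) and Hoxc9 (0.0376), where 9.26% of genes were higher.

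All 16 members had a higher mean with Dox in D395A_9F_XiO, against 47.7% of genes of similarly low level, and 13 of 16 in WT_1A_XiO (not Hoxb9, Hoxd11 or Hoxd1) against 49.7%. The members' sum was 3.19 to 5.28 CPM without and 6.02 to 9.54 CPM with Dox in D395A_9F_XiO, and 3.48 to 4.20 and 4.77 to 5.96 CPM in WT_1A_XiO, with no overlap in either line. Fibroblast markers in D395A_9F_XiO averaged 84.5 CPM without and 83.8 CPM with Dox. In the first YTHDC1 experiment the ranges overlapped slightly in the opposite order, with 2.19 to 2.96 CPM without and 1.40 to 2.23 CPM with Dox, and 3 of 16 members higher. There Hoxd11, too low to test, was at 0.122, 0.0951, 0.0842 and 0.262 CPM without Dox and at 1 read (0.0342 to 0.0424 CPM) in each library with it, a separation downward that 5.45% of genes also had. In METTL3 the members' sum was 2.39 to 6.92 CPM without and 1.78 to 6.08 CPM with Dox, lower with Dox in 8 of 8 pairs. In the remaining lines 7 to 10 members were higher with Dox. These directions share libraries and carry no test, and no dTAG-13 by Dox interaction called a member in any line (limma; all genes called came to 0.196% in ZCCHC8, 0.00576% and 0.0178% in the YTHDC1 experiments and 0% in the other lines).

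**Figure D4:**
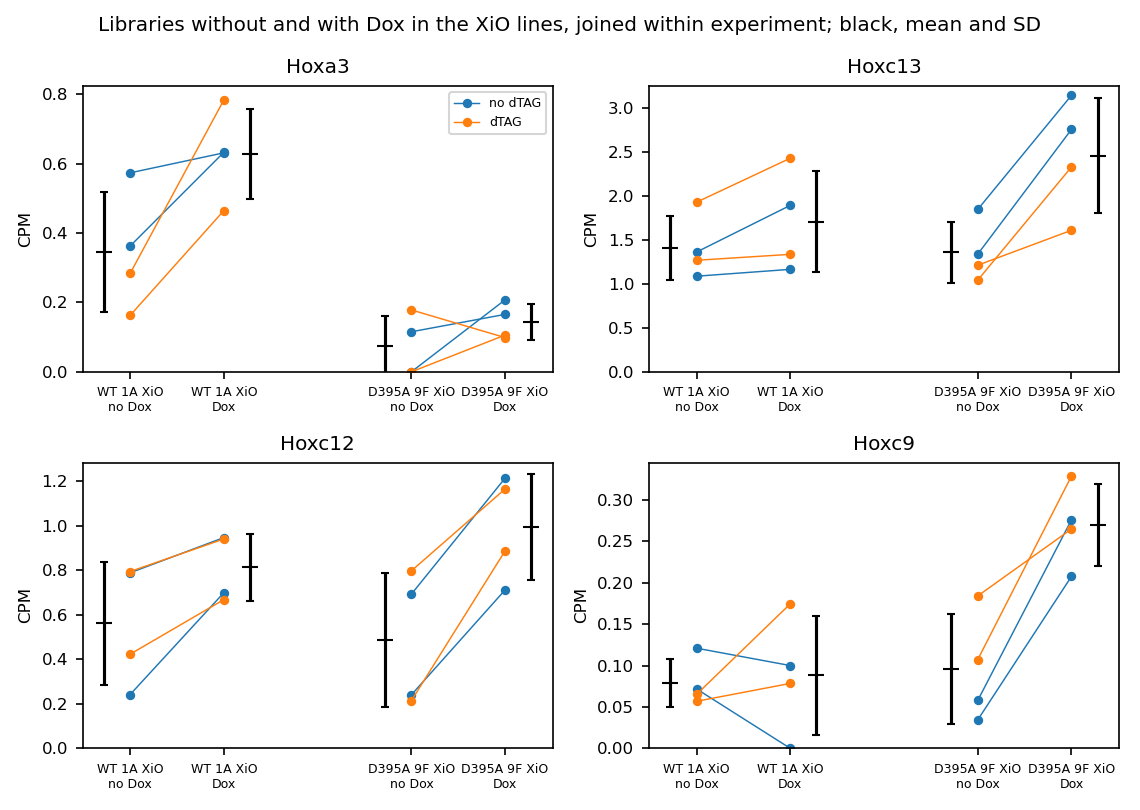
CPM of Hoxa3, Hoxc13, Hoxc12 and Hoxc9 without and with Dox in WT_1A_XiO and D395A_9F_XiO; lines join the libraries of an experiment and black marks give mean ± SD of 4 libraries. Hoxc9 in D395A_9F_XiO is the only gene and line shown here whose libraries do not overlap.

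Non-coding neighbours of called members were abundant enough to set beside them. Gm53 lies upstream of Hoxb9 on the same strand, with 6845 bases between its end and the start of Hoxb9, at a mean of 11.2 CPM. In METTL3 it was at 1.82, 2.93 and 7.28 CPM (lowest, median, highest) without and 3.95, 7.28 and 12.7 CPM with dTAG-13, and rose by 0.93 (SE 0.16, limma adjusted p = 0.0008 at the standard floor). It also rose in D395A_1F (1.01, 0.0175) and ZFC3H1 (0.50, 0.0238), where Hoxb9 changed by 0.48 and 0.20. In the lines ZCCHC8 and D395A_9F_XiO, where Hoxb9 rose, Gm53 changed by 0.12 (0.24) and 0.28 (0.49). Gm53 and Hoxb9 were thus both called in METTL3 and D395A_1F, and only Gm53 or only Hoxb9 in the other lines just named.

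The RNA 6720416L17Rik starts on the opposite strand 83 bases from the start of Hoxd1 and ends 150 bases from the end of Hoxd3. In ZCCHC8 it was at 0.621 to 1.27 CPM without and 1.07 to 2.27 CPM with dTAG-13, and rose by 0.73 (SE 0.16, limma adjusted p = 0.0009), in the line where Hoxd1 and Hoxd3 rose. In METTL3 it rose by 0.45 (0.0348), where Hoxd1 changed by 0.16 (0.24). Evx1, the homeobox gene beyond the posterior end of Hoxa, rose in ZCCHC8 (0.68, 0.0028) and the first YTHDC1 experiment (0.48, 0.0367). It was too low for the standard floor in METTL3 (mean 0.178 CPM without and 0.595 CPM with dTAG-13), where it rose by 0.67 at the floor of 0.1 CPM (limma adjusted p = 0.000402), and in D395A_1F (0.0537 and 0.233 CPM), where it changed by 0.39 (0.384).

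**Figure D5:**
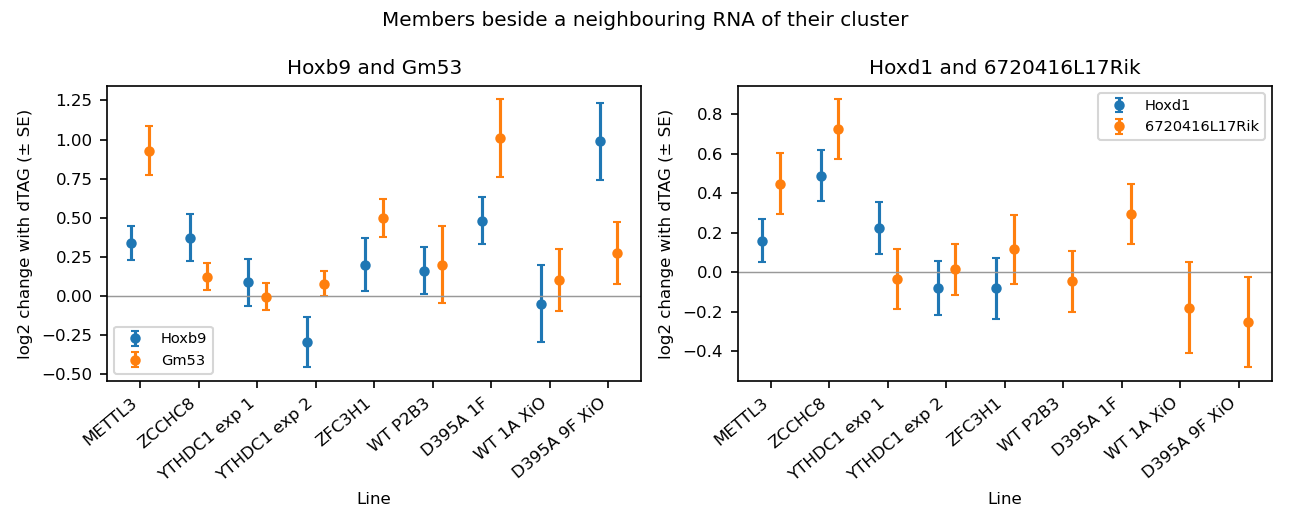
Change with dTAG-13 (log2(CPM + 0.5) scale, ± SE, by line) of Hoxb9 beside Gm53, and of Hoxd1 beside 6720416L17Rik. Gm53 rose in METTL3, D395A_1F and ZFC3H1 and Hoxb9 in METTL3, ZCCHC8 and both D395A lines; 6720416L17Rik rose in ZCCHC8 and METTL3 and Hoxd1 in ZCCHC8.

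The regulators of the clusters were far more abundant and are given by list, at the standard floor. After METTL3 depletion, where 35.2% of all genes were higher and 8.2% lower with a median of 0.24, 1 of 11 PRC2 genes was lower (Ezh2, the methyltransferase) and 0 higher, while 7 of 16 PRC1 genes were higher and 0 lower (among them Ring1, Bmi1, Cbx2 and Pcgf6; list median 0.32). Of 13 Trithorax genes, which oppose Polycomb, 3 were higher and 3 lower. Of 8 cofactors that bind DNA with Hox proteins, Pbx2 was higher and Meis1, Meis2 and Pknox2 lower. Of 6 signals upstream of Hox genes, the retinoic acid receptors Rara, Rarg and Rxra and the homeobox gene Gbx2 were higher and Rarb lower (median 0.88). Of 6 boundary factors Rad21, Stag1 and Smc1a, all of cohesin, were lower. Of 22 genes that flank the clusters, 5 were higher and 4 lower.

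After ZCCHC8 depletion, where 30.7% of all genes were higher and 22.4% lower with a median of 0.03, 4 of 11 PRC2 genes were lower (Suz12, Eed, Mtf2 and Phf19) and 1 higher (Aebp2). PRC1 had 2 higher and 3 lower of 17, and Trithorax 0 higher and 7 lower of 13. Of 6 upstream signals, Rarb, Rarg, Rxra and Aldh1a2, which makes retinoic acid, were higher (median 0.43). Of 7 cofactors Meis2 was higher and Pbx3 lower, of 6 boundary factors 0 were higher and 4 lower, and of 23 flanking genes 5 and 7. Other developmental regulators held by Polycomb were 4 of 4 higher (Gata4, Gata6, Lmx1b and Pax6, median 0.49), and 1 of 5 after METTL3 depletion (Lmx1b, median 0.18). Gata4, Gata6 and Pax6 are also among the differentiation markers above. Of the PRC2 genes, Aebp2, Phf1 and Phf19 were lower with dTAG-13 in both YTHDC1 experiments, and Mtf2 and Rbbp7 in the second. In the first and second experiment 13.3% and 15.1% of all genes were lower. Any link of these lists to the Hox changes was not tested.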

How the data were processed

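Chromatin-associated RNA-seq was analysed in 80 libraries grouped by line and treatment from the sample labels. Per the study's methods, Bowtie2 served to discard rRNA, STAR to place the remaining reads uniquely on N-masked mm10, featureCounts to count them by strand over whole transcripts, and edgeR to scale the counts by library size. The deposited values are these CPM, as the authors made them. Whole reads were recovered from them: 100% of values were whole within 5e-05 CPM. Another 12 columns that match no sample here were not used.

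In each table, genes that averaged 0.5 CPM or more were tested with limma 3.58.1 (R 4.3.3) on log2(CPM + 0.5), all libraries of the table in 1 fit with 1 coefficient per group, clone as a block in the degron lines, two-sided, Benjamini-Hochberg adjustment over all genes and a threshold of 0.05. The dTAG-13 effect is the mean over cells with and without Dox, and the Dox effect the mean over cells with and without dTAG-13. Alternatives were floors of 0.1 and 1 CPM, pseudocounts of 0.1 and 1 CPM, median-ratio scaling, edgeR 4.0.16 on recovered reads, the replicate block turned, a fibroblast marker covariate and each replicate left out. Combinations of these with the floor of 0.1 CPM were chosen after seeing the data.

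Members and lists were chosen with earlier results of these data known. The members described that were called in any degron line, the 3 members of highest CPM per kb in each cluster and genes of the lists given are named (1 row that meets the rule, and genes of some lists, are not reported here), and Gm53, 6720416L17Rik and other rows within the clusters as cluster RNAs. Blocking by clone rests on the cell line: deviations of a clone's libraries from the group means correlated at 0.28 to 0.84 on average (lowest pair -0.16, in H5). Libraries of 1 replicate of a transgene line were split from 1 batch of cells per the study's methods, and correlated at 0.52 to 0.86, so values with that replicate block are given beside those without where a call changes. The scripts were tested on simulated data. Figures were drawn with matplotlib 3.10.9. Among 56 pairs of replicates, 0 were identical. Library depth sets the precision: 1 read is the step of every value, and PCR reads without molecular identifiers are not independent molecules.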

Additional observations from a re-analysis of the deposited data

Results flagged for a closer look

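Among groups of 4 libraries, 44 were looked at, of which chance alone would mark about 1 in 20. In METTL3 cells with dTAG-13, Hoxd13 in clone H5 stood far from the other clones, at 0.851 CPM (16 reads) against a median of 0.540. In METTL3 cells with Dox, Hoxd11 in clone G4 was at 0.0512 CPM, which is 1 read, where the other 3 clones had none.

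The dTAG-13 effect on Hoxd13 differed between ZCCHC8 and the first YTHDC1 experiment by 0.50 (limma adjusted p = 0.0408, edgeR 0.0844). Hoxc13 was higher with dTAG-13 in every pair of WT_1A_XiO (ratio of means 1.26) and lower in every pair of D395A_9F_XiO (0.682), and the test of the difference gave -0.67 (limma unadjusted p = 0.0485, adjusted p = 0.50, floor of 0.1 CPM, and 0.0194 with the replicate block).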

How the results depend on the processing

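Of 368 settings over 30 counts of called members, 344 gave the same count and 24 another. With the floor at 0.1 CPM the counts went from 0 to 3 for dTAG-13 in METTL3, from 0 to 4 in ZCCHC8, from 0 to 1 in D395A_1F and from 0 to 1 for the difference of ZCCHC8 and the first YTHDC1 experiment, because more members were tested. For ZCCHC8 a pseudocount of 1 CPM or a fit on that line's libraries alone gave 1 (Hoxb9). For dTAG-13 in D395A_9F_XiO the count of 1 (Hoxb9) went to 0 with a floor of 1 CPM, a pseudocount of 0.1 CPM, median-ratio scaling, edgeR, the line alone, either arm alone, and without either replicate (0 to 0). The cause was not tested, except that a floor of 1 CPM leaves Hoxb9 out.

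With the experiment as a replicate block in the transgene lines, D395A_9F_XiO had 2 members called with dTAG-13 (Hoxb9 0.99, limma adjusted p = 0.00106; Hoxc13 -0.42, 0.0184), 2 with Dox (Hoxc12 0.64, 0.00841; Hoxc13 0.66, 0.00325) and 2 in its dTAG-13 difference from WT_1A_XiO (Hoxb9 1.04, 0.014; Hoxc13 -0.67, 0.0193) at the standard floor. With the block and the floor of 0.1 CPM these counts were 3, 4 and 2, with 2 for Dox in WT_1A_XiO and 1 for dTAG-13 in D395A_1F. The block changed no other count of the transgene lines. The fibroblast covariate gave 1 member with Dox in D395A_9F_XiO (Hoxc13 0.65, 0.0249) and turned the Hoxb9 change in ZCCHC8 to -0.41. Under median-ratio scaling at the floor of 0.1 CPM, Hoxb9 was not called in METTL3 (0.27, limma adjusted p = 0.0692) or ZCCHC8 (0.35, 0.0624). Leaving out a clone of ZFC3H1 or of the second YTHDC1 experiment leaves no residual degrees of freedom and gave no value. Depth limits all of these: 3 reads are 0.134 CPM in the median library.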
